A study of Mus musculus with 4 samples.

Results

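The genes of classical and nonclassical major histocompatibility complex (MHC) class I molecules were described in liver T cells of mice that lack both CD4 and CD8 (double negative T cells), under a normal diet and under a diet that lacks methionine and choline. The 10 members were the rows of the deposited table named H2-K1, H2-D1, H2-Q4, H2-Q6, H2-Q7, H2-Q10, H2-T23, H2-T24, H2-M3 and B2m, out of 17454 gene rows. They were chosen by gene name with their values in this same diet comparison already known, so their diet differences are a description and carry no test. The cells were sorted as 7-AAD negative, CD45 and CD3 positive, and without NK1.1, CD4 or CD8, from livers of adult C57BL/6 mice. There were 2 libraries from mice on the normal diet and 2 from mice on the methionine-choline deficient diet, which is widely used to induce steatohepatitis. The labels name no other treatment. Whether each library is 1 mouse or a pool is not stated in them, so all p-values measure the spread between these libraries, which may be technical. Values were taken as FPKM, a level scaled by transcript length and sequencing depth.

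A class I molecule is a heavy chain that spans the membrane, paired with the small soluble chain beta-2 microglobulin, and it carries a short peptide to the cell surface. The classical chains, H2-K and H2-D in mice of this strain, sit on nearly all nucleated cells and show peptides from the cell's own proteins to CD8 T cells. The nonclassical chains of the Q, T and M regions have narrower roles. Qa-2, made from the genes H2-Q6 to H2-Q9, is a lipid-anchored or soluble chain of lymphocytes, and Qa-1, the product of H2-T23, carries leader peptides of other class I chains to the CD94 and NKG2 receptors. H2-M3 shows formylated peptides of bacteria and mitochondria. H2-Q10 is secreted, mainly by the liver. Interferon gamma raises class I transcription through IRF1, which binds interferon response elements, and through NLRC5, which acts on a separate promoter module known as SXY.

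The promoter stretch around the first match to the core of the interferon response element is shown here. It lets the members be compared in sequence independently of their levels. The promoter table from RefSeq (build GRCm38.p6) matched 9 of the 10 members, all but H2-T24. Its windows run from 250 bases before to 50 after the annotated start. In each line below, written 5′ to 3′ on the strand of the gene, capitals mark the core of the interferon-stimulated response element (TTTCNNTT on either strand) and, where found, a kappa-B site (GGGGATTCC or GGGATTTCC), the binding motif of NF-kappa-B. Each stretch is 54 bases long; H2-K1 has a pair of overlapping windows, of which 1 was used.
H2-K1, chr17:34000418-34000471, minus strand: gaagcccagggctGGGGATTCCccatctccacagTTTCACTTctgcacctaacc
H2-D1, chr17:35262910-35262963, plus strand: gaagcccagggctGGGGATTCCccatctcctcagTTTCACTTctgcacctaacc
H2-Q6, chr17:35424664-35424717, plus strand: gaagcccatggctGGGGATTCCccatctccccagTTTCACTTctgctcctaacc
H2-Q7, chr17:35439008-35439061, plus strand: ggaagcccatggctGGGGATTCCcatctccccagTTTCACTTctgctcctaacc
H2-Q4, chr17:35379430-35379483, plus strand: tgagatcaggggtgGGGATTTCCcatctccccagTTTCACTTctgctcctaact
H2-Q10, chr17:35469900-35469953, plus strand: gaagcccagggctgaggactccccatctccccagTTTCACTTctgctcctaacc
H2-M3, chr17:37270099-37270152, plus strand: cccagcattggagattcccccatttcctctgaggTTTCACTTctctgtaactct
H2-T23, chr17:36032806-36032859, minus strand: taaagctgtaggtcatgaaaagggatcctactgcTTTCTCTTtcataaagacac
B2m, chr2:122147516-122147569, plus strand: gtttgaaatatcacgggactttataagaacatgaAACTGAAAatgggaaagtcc

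All 9 windows held the letters TTTCNNTT, which 23.9% of the 32851 promoter windows of mouse genes also hold. The letters were TTTCACTT in 7 of them, those of H2-K1, H2-D1, H2-Q4, H2-Q6, H2-Q7, H2-Q10 and H2-M3. The window of H2-T23 held a second match, TTTCTGTT at position -81, outside the stretch printed above. The kappa-B letters GGGGATTCC were found in 4 windows, those of H2-K1, H2-D1, H2-Q6 and H2-Q7, against 0.250% of all windows, and GGGATTTCC in that of H2-Q4, against 0.323%. Neither kappa-B spelling is in the window of H2-Q10, H2-M3, H2-T23 or B2m. The 4 windows with GGGGATTCC resemble each other, so their matches are not independent. Aligned in pairs, they were from 56.7% (H2-K1 and H2-Q6) to 79.7% (H2-D1 and H2-Q6) identical. The window of B2m was 48.8% to 53.9% identical to those of the other members. A further motif, the CRE-like TGACGC, was found in 4 of the 9 windows (H2-K1, H2-D1, H2-M3 and H2-Q4) and in 7.40% of all windows, outside the stretches printed above. The match of H2-Q4 lay on the opposite strand at position 30 after the annotated start. Those of H2-K1, H2-D1 and H2-M3 lay before the start on the strand of the gene. The longer TGACGTCA was in none of the 9 and in 1.79% of all. CCAAT was in 8 of 9 windows against 37.4%, and TATAAA in 5 of 9 against 13.6%. The TATAAA match of B2m lay on the opposite strand at position -152, and that of H2-K1 at position 35, after the annotated start. Those of H2-D1, H2-Q4 and H2-Q10 lay at -26, -28 and -28. Searches covered both strands and the motifs did not overlap in the stretches shown. These matches describe letters in a window, and binding was not measured.

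Close copies limit what a single row can show, so the share of each member's coding transcripts found in any transcript of another gene was counted in words of 36 bases. B2m shared 0 of its 825 words with any other gene, and H2-M3 and H2-T24 shared 3.14% and 5.14%. H2-Q10 shared 14.5%, H2-K1 15.0% and H2-D1 23.2%. The share was 43.3% for H2-T23, 44.6% for H2-Q7, 46.0% for H2-Q6 and 52.7% for H2-Q4. Between coding transcripts of members the closest pair was H2-Q7 and H2-Q6, where 21.8% of the words of H2-Q7 were found in H2-Q6 and 17.3% of those of H2-Q6 in H2-Q7. Of the words of H2-Q6, 11.8% were found in coding transcripts of H2-Q4 and 19.95% in all transcripts of H2-Q4, those not marked as coding included. The words came from transcripts of GENCODE vM21, a later annotation than any build the submitters name. H2-L, H2-Q8 and H2-Q9, further rows of the deposited table, are not named in those transcripts and were not compared in this count. The shares above therefore leave out what members have in common with them. How the authors' processing placed reads that match several genes is not given in the sources used here. By shared sequence alone, levels of H2-K1, H2-D1, H2-T23 and the H2-Q rows are therefore less certain than those of B2m, H2-M3 and H2-T24. H2-T24 has a separate limit, its low level of 1.30 to 4.20 FPKM.

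**Figure D1:**
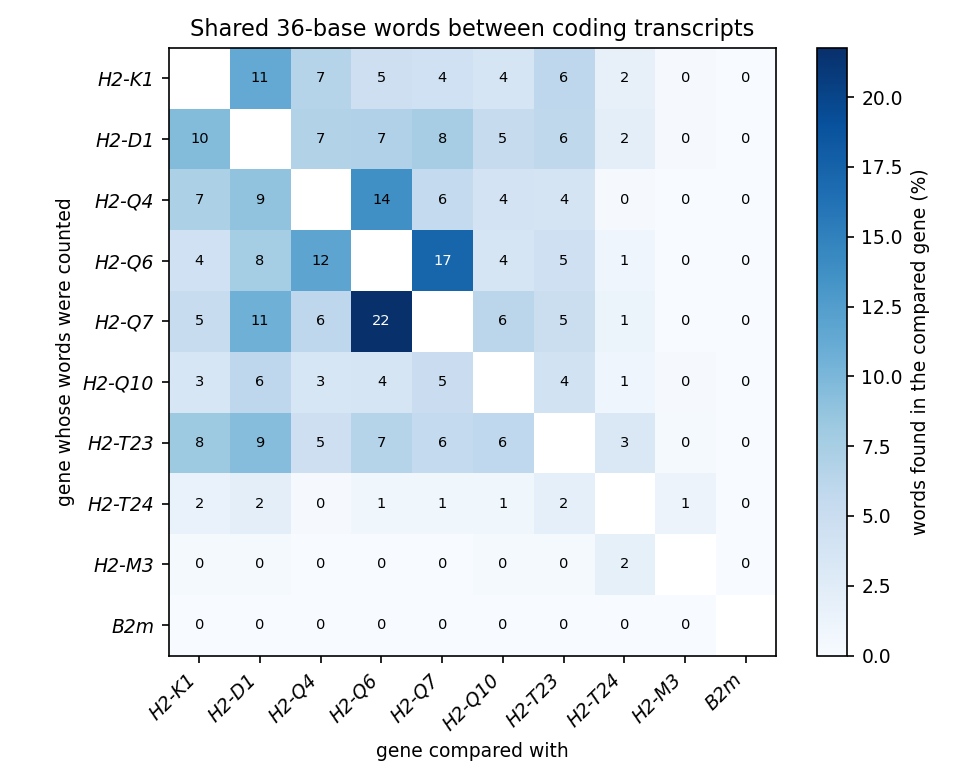
Share of the 36-base words in the coding transcripts of each member (rows) that also occur in coding transcripts of each other member (columns), in percent. The darkest cells are H2-Q7 against H2-Q6, 21.8%, and H2-Q6 against H2-Q7, 17.3%, and the B2m row and column are at 0.

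The libraries differed in transcripts of other liver cells, which the sort should remove. Summed FPKM of 29 hepatocyte markers was 45.3 and 443.8 under the normal diet against 245.5 and 130.9 under the deficient diet, and that of 14 macrophage markers was 148.2 and 2114 against 1337 and 716.5. The second normal diet library held the most of both, and likewise of neutrophil, sinusoidal endothelium, B cell and dendritic cell markers, while the first held the least of the hepatocyte, macrophage, neutrophil, endothelial and B cell lists. No gene of these 6 lists passed in limma; at an unadjusted p under 0.05 there was 1 higher and 0 lower among macrophage markers, and 0 higher with 1, 2, 0, 1 and 1 lower among hepatocyte, neutrophil, endothelial, B cell and dendritic markers. The T cell genes Cd3e, Lat, Cd2 and Lck stood at 274 FPKM or more in every library. Cd8a was at 22.4 and 8.26 FPKM under the normal diet and at 0.836 and 1.42 on the deficient diet, Cd8b1, the other CD8 chain, at 25.2 and 19.3 against 13.4 and 13.97, and Klrb1c, which encodes NK1.1, at 18.3 and 13.8 against 5.34 and 2.96. Between bulk libraries, fewer cells of a type and less RNA per cell cannot be told apart.

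Every member had a lower mean on the deficient diet. For 9 of the 10, all but H2-Q10, both deficient diet libraries lay below both normal diet libraries, as did 25.5% of the 10423 genes tested. With the limma test applied to all genes, 1 of the 10, H2-Q6, passed a Benjamini-Hochberg adjusted p of 0.05 as lower, against 1.53% of all genes tested, and none passed as higher, against 1.22%. These counts come from the comparison that chose the members. All 10 passed the filter of 1 FPKM in 2 libraries. The median difference over the members was -0.75 on the log2(FPKM + 1) scale, beside 0.04 over all genes tested. The members together made up 1.80% and 1.59% of the summed FPKM under the normal diet and 1.11% and 1.17% under the deficient diet.

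**Figure D2:**
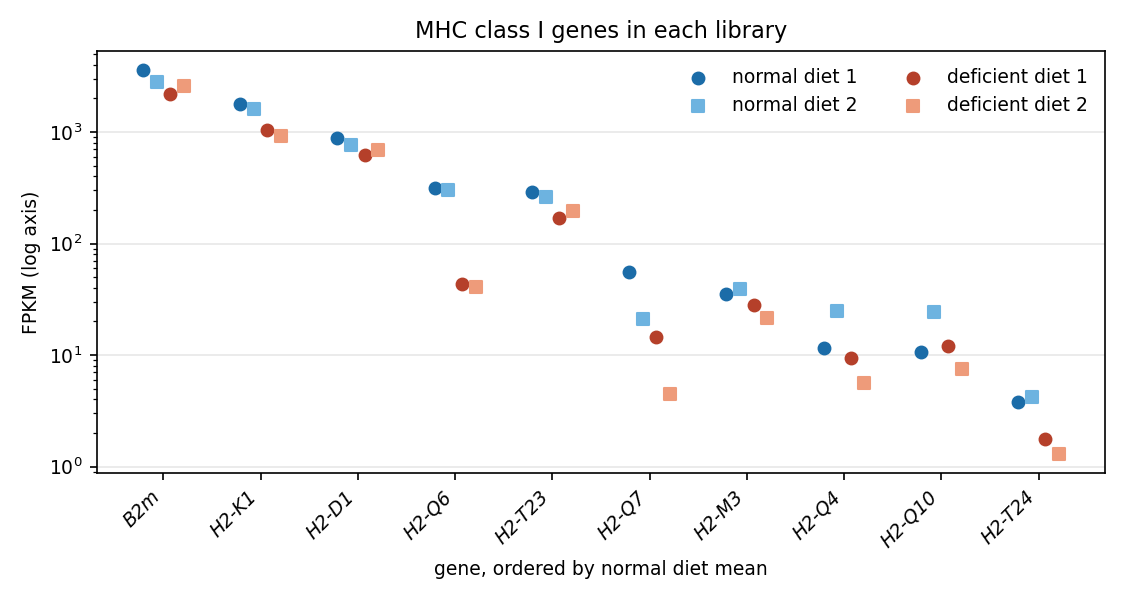
FPKM of each member in each of the 4 libraries, on a log axis, ordered by the normal diet mean. Circles and squares are replicates 1 and 2 of each diet. The gap between diets is widest for H2-Q6 (318 and 302 against 43.4 and 40.6 FPKM), and H2-Q10 is the member whose diets overlap.

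B2m, the shared light chain, was the most abundant member. It stood at 3601 and 2815 FPKM under the normal diet and at 2191 and 2592 under the deficient diet. Its rank among all rows was 3 and 4 with the normal diet and 9 and 11 with the deficient one. The diets did not overlap but lay close, since the lower normal diet value exceeded the higher deficient diet value by 0.12 on the log2 scale, while the normal diet replicates were 0.35 apart. The means were 3208 ± 556 and 2392 ± 284 FPKM (mean ± SD over 2 libraries in each diet, here and for later means), a ratio of 1.34. This ratio is the smallest of the family after that of H2-D1.

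The classical heavy chains differed from each other. H2-K1 stood at 1785 and 1616 FPKM under the normal diet and at 1046 and 922 on the deficient diet, means of 1700 ± 119 and 984 ± 87.2. Both deficient diet libraries lay well below both normal diet libraries, with 0.63 log2 units between the nearest values and at most 0.18 between replicates. H2-D1 stood at 889 and 765 FPKM against 623 and 696. Its log2 difference of -0.32 compares with -0.79 for H2-K1, and the distance between its nearest libraries of the 2 diets, 0.14, was smaller than that between its replicates, 0.22 and 0.16. Per 100 FPKM of H2-K1, H2-D1 was at 49.8 and 47.4 under the normal diet and at 59.6 and 75.5 under the deficient diet. Such a ratio within a library does not depend on the scaling of that library.

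The row H2-L, no member, bears on H2-D1, since C57BL/6 mice are known to lack a separate H2-L gene and the product named H2-L in other strains closely resembles H2-D. It was listed at 1234 and 1169 FPKM under the normal diet and at 990 and 1117 on the deficient diet. Summed with H2-D1, the values were 2123 and 1934 against 1613 and 1813 FPKM. The diets still did not overlap in this sum, but its nearest values, 1934 and 1813 FPKM, lay closer together than the replicates of either diet. The ratio of the sum, 1.18, was below that of H2-D1 alone, 1.25.

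Among the genes of Qa-2, H2-Q6 had the widest difference of the family. It stood at 318 and 302 FPKM under the normal diet and at 43.4 and 40.6 on the deficient diet. Replicates of each diet were within 0.09 log2 units of each other while the diets were 2.77 apart at their nearest. The means of 310 ± 10.7 and 42.0 ± 1.97 FPKM gave a ratio of 7.38, and the rank among all rows went from 169 and 162 to 1741 and 1865. H2-Q7 was at 55.1 and 20.9 FPKM against 14.6 and 4.50. The diets did not overlap, but replicates of H2-Q7 were 1.35 and 1.50 log2 units apart, more than the 0.50 between the nearest libraries of the 2 diets.

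The neighbouring rows H2-Q8 and H2-Q9 encode Qa-2 as well and are no members. H2-Q9 was lower on the deficient diet, at 631 and 487 FPKM against 117 and 188, a log2 difference of -1.89 ± 0.28 (SE) with a limma adjusted p of 0.0470. H2-Q8 was at 240 and 107 FPKM against 111 and 166, and its diets overlapped. Because these genes resemble each other, the sum of H2-Q6 to H2-Q9 is less open to reads placed on the wrong copy among them. Reads shared with genes outside it are not covered. Of the 36-base words of H2-Q6, 19.95% were found in transcripts of H2-Q4, and of those of H2-Q7, 25.8% in transcripts of H2-Q5. That sum was 1243 and 917 FPKM under the normal diet and 286 and 398 under the deficient diet, a ratio of 3.16, so the diets remained apart after summing. The single ratios were 7.38 for H2-Q6, 3.99 for H2-Q7, 1.25 for H2-Q8 and 3.67 for H2-Q9. A ratio of sums always lies within the range of the single ratios.

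The makeup of the class I transcripts differed between diets. Over all rows named as H2 class I heavy chains, the genes of Qa-2 made up 21.7% and 18.3% of the summed FPKM under the normal diet and 8.61% and 11.3% under the deficient diet. H2-D1 and H2-L together made up 37.1% and 38.5% against 48.5% and 51.2%. The share of H2-K1 was 31.2% and 32.2% against 31.5% and 26.1%, and that of H2-T23 was 5.01% and 5.15% against 5.14% and 5.49%, with overlap between diets in both. The summed level of these rows was 5728 and 5024 FPKM under the normal diet and 3324 and 3538 under the deficient diet. Per 100 FPKM of B2m it was 159 and 178 against 152 and 136.

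**Figure D3:**
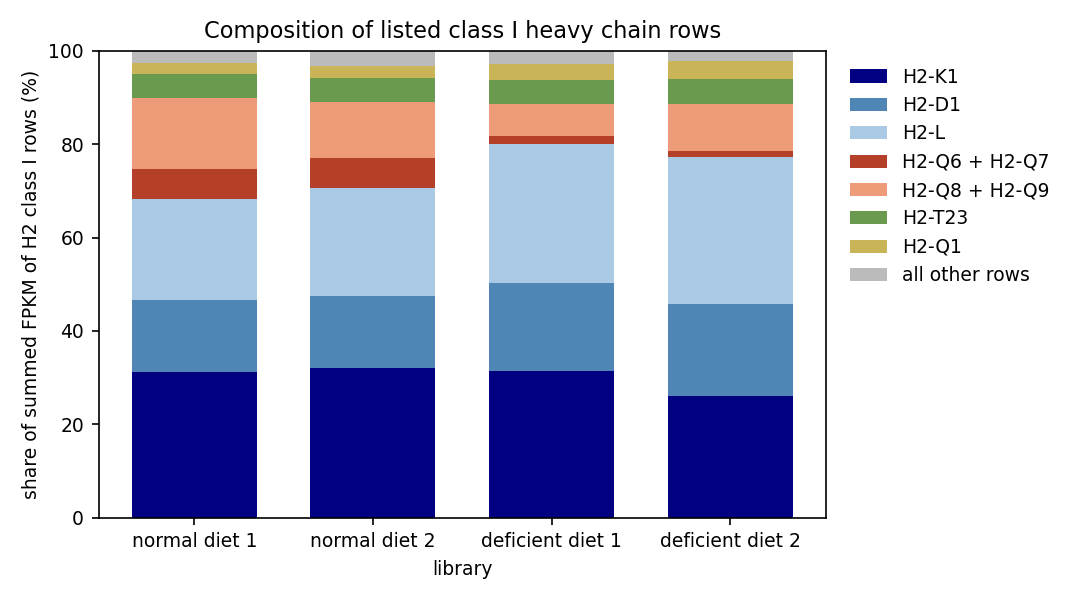
Composition of the summed FPKM of all H2 class I heavy chain rows in each library, in percent. The H2-Q6 to H2-Q9 segments together shrink from 21.7% and 18.3% on the normal diet to 8.61% and 11.3% on the deficient diet, and the H2-D1 and H2-L segments together grow from 37.1% and 38.5% to 48.5% and 51.2%.

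Of the nonclassical genes outside Qa-2, H2-T23, which encodes Qa-1, stood at 287 and 259 FPKM under the normal diet and at 171 and 194 on the deficient diet. The diets lay 0.41 log2 units apart at their nearest, and replicates differed by at most 0.18. Its means of 273 ± 20.2 and 183 ± 16.4 FPKM gave a ratio of 1.50. H2-T23 ranked below H2-Q6 on the normal diet and above it on the deficient diet, with no overlap of the pair in either diet. Per 100 FPKM of H2-K1 it was at 16.1 and 16.0 against 16.3 and 21.0.

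H2-M3 was at 35.4 and 39.3 FPKM under the normal diet and at 28.0 and 21.6 on the deficient diet, a ratio of means of 1.51, with 0.33 log2 units between the nearest libraries of the 2 diets and 0.36 between the deficient diet replicates. H2-T24 had the lowest level of the family. It was listed at 3.79 and 4.20 FPKM against 1.75 and 1.30, with no overlap and a ratio of 2.61. At such levels the pseudocount sets the log2 difference of H2-T24, which was -1.34, -0.99 and -0.46 with pseudocounts of 0.1, 1 and 5 FPKM.

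H2-Q4 and H2-Q10 had replicates of the normal diet over 1 log2 unit apart. H2-Q10, the secreted chain, was at 10.604 and 24.2 FPKM under the normal diet and at 11.99 and 7.47 on the deficient diet. The second normal diet library was the highest and the other 3 lay together, so the diets overlapped. H2-Q4 was at 11.7 and 24.9 FPKM against 9.47 and 5.58, again highest in the second normal diet library, with no overlap. The log2 difference of H2-Q10 was -0.71 with all libraries, -0.15 without the second normal diet library and -1.27 without the first. That of H2-Q4 was -1.13, -0.61 and -1.64 in the same order.

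The second normal diet library was also the one with the most hepatocyte transcripts. Its summed hepatocyte markers, 443.8 FPKM, compare with 45.3 in the first normal diet library and with 245.5 and 130.9 on the deficient diet. None of the 29 markers was at 0 in that library, whereas 6 were at 0 in the first normal diet library and 1 in each deficient diet library. The order of the libraries was not the same for H2-Q10, which was lower in the second deficient diet library than in the first normal diet library. Hp, haptoglobin, stood at 2.10 and 68.5 FPKM against 37.4 and 26.8, and Alb, albumin, at 1.91 and 16.3 against 22.4 and 12.3. The part of these cells in the level of H2-Q10 was not tested.

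**Figure D4:**
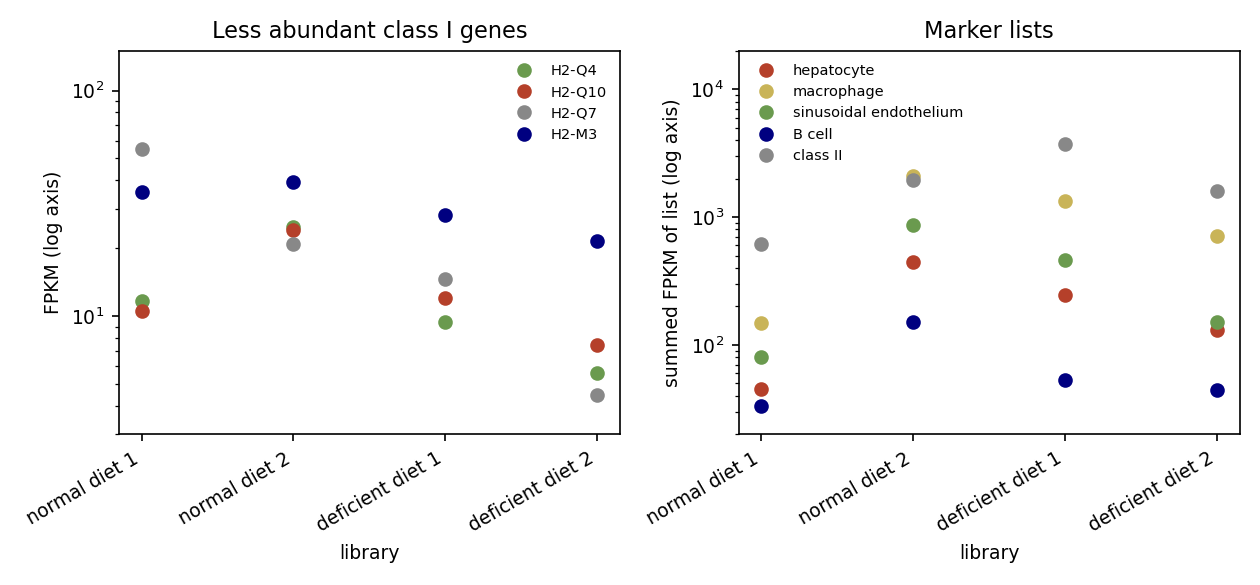
Left, FPKM of 4 less abundant members in each library, and right, summed FPKM of marker lists of other cell types and of MHC class II genes, both on log axes. The second normal diet library is the highest for H2-Q10 (24.2 FPKM) and H2-Q4 (24.9 FPKM) and for hepatocyte (443.8 FPKM) and macrophage (2114 FPKM) markers, while H2-Q7 is highest in the first (55.1 FPKM).

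MHC class II genes, which mark antigen-presenting cells, went the other way by fitted value in 8 of 10 tested genes, with a median log2 difference of 1.04. The other 2 had a lower fitted value, beside 46.8% of all genes tested. None of the 10 passed in limma, and 1 higher and 1 lower had an unadjusted p under 0.05. Cd74, the invariant chain, was at 188 and 650 FPKM under the normal diet and at 1328 and 561 on the deficient diet, and H2-Ab1, H2-Aa and H2-Eb1 had the same order of libraries. The diets overlapped for these 4 genes. Without the first normal diet library the median of the class II list was 0.13.

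The path that cuts and loads peptides was examined through lists that hold none of the 10 members. These lists too were chosen with earlier results of these data known, so their limma p-values are not an independent test. In the immunoproteasome list, the subunits that interferon gamma induces and the PA28 activator, 5 of 5 genes had a lower fitted value. Over all genes tested this share was 46.8%. Of the 5, 1 fell, Psmb9, against 1.53% of all genes tested. Psmb9, the catalytic subunit LMP2, fell from 137 and 115 FPKM to 39.0 and 45.5, a log2 difference of -1.55 ± 0.17 (SE) with a limma adjusted p of 0.0328. Psmb10 was at 62.9 and 55.6 FPKM against 41.9 and 47.2, Psme1 at 49.0 and 43.4 against 28.0 and 37.0, and Psme2 at 3.31 and 2.95 against 1.07 and 1.70. Psmb8, at 31.6 and 24.7 against 20.8 and 25.0 FPKM, overlapped between diets. The median log2 difference of the list was -0.51. Among 13 tested subunits of the constitutive proteasome the median was -0.14, and none passed in limma, none even at an unadjusted p under 0.05. Psmb2, Psmb7, Psma1 and Psma7, the most abundant, had log2 differences between -0.14 and 0.37.

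Of 12 genes of the peptide loading complex and its helpers none passed in limma. At an unadjusted p under 0.05, 1 was higher and 2 were lower, and the median log2 difference was -0.17. Tapbp, the gene of tapasin, which bridges the transporter and the heavy chain, stood at 363 and 338 FPKM under the normal diet and at 472 and 552 on the deficient diet, with an adjusted p of 0.133 in limma. Pdia3 and Calr, chaperones of the same complex, had log2 differences of -0.16 and -0.41, and Bcap31 one of -0.25. Tap1, a chain of the peptide transporter, was at 84.7 and 69.2 against 44.7 and 61.2 FPKM, and Tap2, the partner chain, at 155 and 138 against 149 and 161.

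Of 28 regulators of class I transcription and of interferon signalling 1 passed as lower, against 1.53% of all genes tested. None passed as higher, against 1.22%. The gene that passed was Irf1, which fell from 389 and 420 to 197 and 204 FPKM. Its log2 difference was -1.01 ± 0.13 (SE) with a limma adjusted p of 0.0413. Nlrc5, the class I transactivator, was at 21.3 and 15.3 FPKM against 9.65 and 8.74 and did not pass (adjusted p = 0.111 in limma). Irf9 had 62.4 and 70.4 against 38.3 and 50.1 FPKM and Jak1 had 191 and 180 against 175 and 194, neither past the threshold. The chains of the interferon gamma receptor were higher by value on the deficient diet without passing, Ifngr1 at 1143 and 1198 against 2019 and 2696 FPKM and Ifngr2 at 10.64 and 25.4 against 77.3 and 79.2 (adjusted p = 0.0752 and 0.0662 in limma). The median log2 difference of the list was -0.21.

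The calls of Psmb9 and Irf1, like every other call named here, depended on which library entered the fit. No gene of the table passed in limma without the first normal diet library or without either deficient diet library, where 1670, 2029 and 1337 had an unadjusted p under 0.05. Without the second normal diet library Psmb9 and Ifngr2 passed while Irf1 did not.

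**Figure D5:**
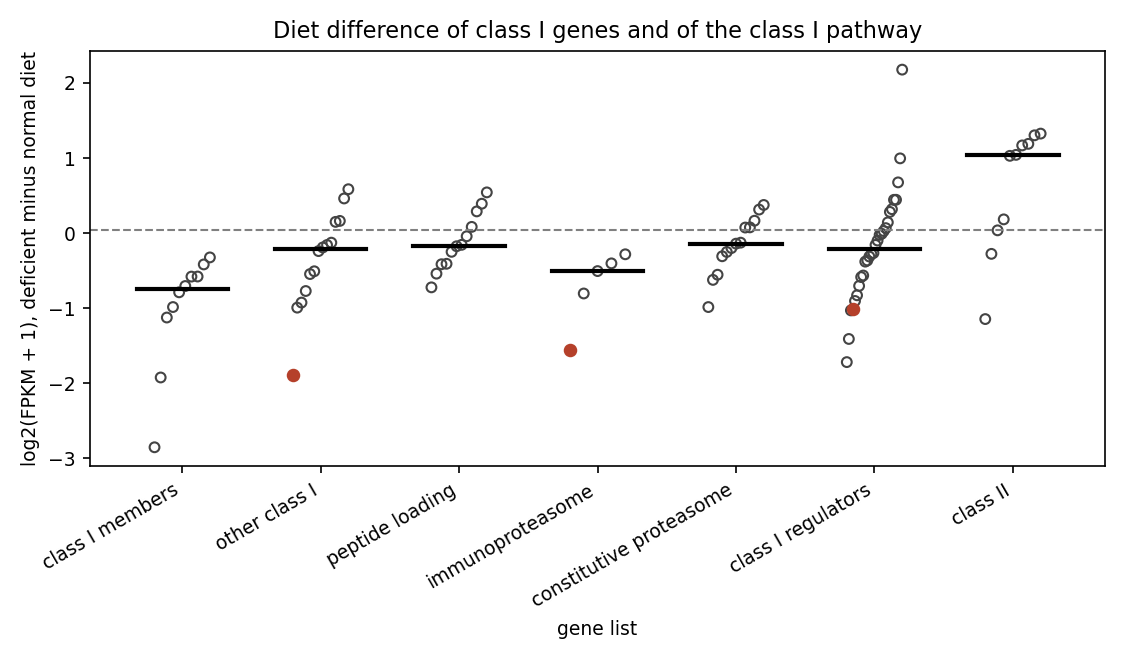
Differences in log2(FPKM + 1), deficient minus normal diet, for the members and for 6 lists of the class I pathway and class II genes. Each point is a gene, filled points passed an adjusted p of 0.05 in limma (members are drawn without a call), bars are list medians, and the dashed line is the median of all tested genes, 0.04. The bar of the members lies at -0.75 and that of the class II genes at 1.04.

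A list of receptors, most of which bind class I molecules, was measured in the same libraries. It was likewise chosen with earlier results of these data known. It holds both CD8 chains and also Cd244, whose known ligand is CD48. Of 18 tested, 5 fell, against 1.53% of all genes tested, and none passed as higher, against 1.22%. The median log2 difference over the list was -1.83. Klrd1 and Klrc1, the chains CD94 and NKG2A of the receptor for Qa-1, fell from 167 and 121 to 33.9 and 28.9 FPKM and from 23.4 and 18.1 to 4.64 and 5.24 FPKM, with limma adjusted p of 0.0323 and 0.0365. Cd160 also fell, as did Klra7 and Klra9, which belong to a family of near-identical genes and are uncertain for that reason. Shared sequence was not counted for any receptor, Klrc1 and the related rows Klrc2 and Klrc3 included. Of 6 markers of conventional T and natural killer cells, which share Cd8a and Cd8b1 with the receptor list, 5 were tested. All 5 had both deficient diet libraries below both normal diet libraries, as did 25.5% of all genes tested. Their median log2 difference was -1.76. None passed in limma, 4 having an unadjusted p under 0.05. Eomes, a transcription factor of natural killer and memory CD8 T cells, was at 10.9 and 8.70 FPKM against 1.77 and 0.346, and Cd4 at 3.86 and 4.11 against 0.618 and 2.44. The part of such cells in the receptor values was not tested.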

How the data were processed

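RNA of sorted double negative T cells was extracted with Trizol and made into Illumina TruSeq libraries, per the labels' protocols. The deposited values were taken as FPKM; neither table nor labels name the unit, and if they were TPM each library would carry its own factor. Bowtie 0.12.2 and build mm8 are named in the submitters' processing notes; how transcripts were quantified is not given in the sources used here, nor is the annotation. Read depth is unknown, so no count test was run and precision rests on 2 libraries per diet.

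Samples were grouped by labelled diet and columns matched by title. Values were analysed as log2(FPKM + 1) for 10423 genes with at least 1 FPKM in 2 libraries, using limma 3.58.1 in R 4.3.3 with a trend of variance on mean level, 1 factor for diet and Benjamini-Hochberg adjustment over all these genes; 286 passed an adjusted p of 0.05. A pseudocount understates differences of low genes. The step was tested on simulated data. With 2 libraries per diet, a gene that did not pass is not shown to be unchanged. The members and lists were chosen with earlier results of these data known. The rule named all members, called list genes, the 4 most abundant others per pathway list the 2 most abundant per list of other cells, and Alb, Cd3e, Lyz2, Cd79a, Cd8a and Klrb1c; Nlrc5, Tap1, Tap2, Ifngr2, Eomes and Cd4 lie outside it, as do Mr1, Cd1d1, Hfe, H2-T10 and H2-T22; their values had been seen when they were chosen. Not all genes that the rule names are printed.

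Words of 36 bases were counted on both strands in transcripts of GENCODE vM21. Promoters were searched on both strands with Python 3.11.15 and aligned in pairs with Biopython 1.88. Protein identity between members, planned at the outset, was not computed. Alternatives were pseudocounts, filters, scalings, leaving out each library, a replicate block, no trend and words of 50 bases.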

Additional observations from a re-analysis of the deposited data

How the results depend on the processing

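The median log2 difference of the members, -0.75, stayed negative under all alternatives run and ranged from -0.95 to -0.63 with 1 library left out. All 10 members, or 9 where the filter of 5 FPKM removed H2-T24, kept a lower fitted value under every alternative, which the choice of members largely fixes. With 1 library left out the log2 difference ran, for H2-Q7, from -2.67 to -1.17, for H2-Q4 from -1.64 to -0.61, for H2-Q10 from -1.27 to -0.15, for B2m from -0.60 to -0.24, for H2-M3 from -0.76 to -0.40, for H2-T24 from -1.11 to -0.86, for H2-D1 from -0.43 to -0.22 and for H2-Q6 from -2.90 to -2.81. Quantile normalization moved H2-D1 to -0.17.

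The 286 genes called in limma became 467 with quantile normalization, 141 without the trend (134 of them shared) and 0 without a filter (2768 at an unadjusted p under 0.05). Leaving out a single library gave counts from 0 to 352 (1337 to 2061 at an unadjusted p under 0.05). The count of called genes among 45 of peptide loading, immunoproteasome and regulation, 2 in the fit reported above, was 0 without a filter (14 at an unadjusted p under 0.05) or without the trend (13), and ran from 0 to 2 with 1 library left out. The replicate number is shared by the diets but no label says that it pairs libraries, and deviations of same-numbered libraries correlated at -0.28 across genes. With the replicate number as a block limma called 0 genes in the table (1844 at an unadjusted p under 0.05) and 0 in these lists (12). With the numbers crossed, an alternative chosen after seeing the data, 52 and 1 were called. The median of the constitutive proteasome list turned to 0.074 with a filter of 5 FPKM, where fewer genes were tested. With words of 50 bases the shared part of H2-Q6 was 34.97% and that of H2-Q4 39.2%.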

Other observations

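Mr1, which shows vitamin B metabolites to mucosal-associated invariant T cells, stood at 9.01 and 9.79 FPKM under the normal diet and at 7.30 and 15.3 on the deficient diet. Cd1d1, which shows lipids to natural killer T cells, was at 3.38 and 2.91 against 5.48 and 4.004 FPKM, and neither passed in limma. Hfe and Fcgrt, class I-like proteins of iron and antibody handling that macrophages and endothelium also make, were at 1.42 and 19.2 against 12.01 and 7.45 FPKM and at 15.3 and 124 against 73.5 and 21.9 FPKM. Both were highest in the second normal diet library, as were the summed macrophage markers, and the part of those cells was not tested. H2-T22 and H2-T10 are close relatives in the T region. H2-T22 was at 23.1 and 27.4 against 15.4 and 10.58 FPKM, and H2-T10 at 26.5 and 23.05 against 15.3 and 13.0 FPKM. Neither overlapped between diets and neither passed (adjusted p = 0.115 and 0.102 in limma). H2-Q1, more abundant than both, was at 143 and 132 against 114 and 133 FPKM, with overlap and a log2 difference of -0.16. Over the 14 tested class I and class I-like genes that are no members, the median log2 difference was -0.22. Of these, 10 had a lower and 4 a higher fitted value, while 46.8% of all genes tested were lower.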
